A study of Mus musculus with 60 samples.

Results

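Liver macrophage preparations of wild-type mice given carbon tetrachloride (CCl4) were compared with those of wild-type mice given corn oil alone, over all expressed genes. The members are 10 libraries, 1 per mouse and 5 per group, of 15 libraries in the series. All 10 mice were wild-type C57BL/6J animals, 8 weeks old and labelled male. The oil group had received a single injection of corn oil, and the CCl4 group a single injection of CCl4 (2 µl per g body weight, in corn oil at 1:4); both were killed 12 h later. The libraries were chosen by genotype and treatment as the labels give them. The other 5 libraries, from Trem1-deficient mice given CCl4, entered the fit with its filter, scaling and estimate of the spread. They are not compared here. That spread was unequal. The coefficient of variation fitted to all tested genes, counting noise apart, was 0.824 in oil, 1.17 in wild-type CCl4 and 0.659 in Trem1-deficient mice. Livers were digested with collagenase and freed of most hepatocytes by a slow spin and a density gradient, CD11b-binding cells were removed on beads, and F4/80-binding cells were collected from what was left. The result is an enriched preparation and not a sort of single cells. The labels number the mice of a group, so the mouse was the replicate.

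Kupffer cells are the resident macrophages of the liver. They line the sinusoids, take up particles, dying cells, bacteria and haemoglobin from portal blood, and make much of the C1q of complement. Their identity rests on transcription factors such as Spi-C, LXR-alpha (Nr1h3) and ID3 and on growth signals through the receptor encoded by Csf1r. CCl4 is turned into radicals by cytochrome P450 enzymes of the hepatocytes around the central veins, which die within a day. Debris, damage signals, neutrophils and monocytes then fill the injured zone while surviving hepatocytes secrete acute-phase proteins. Such injury is a classic model of acute liver damage and, on repeated dosing, of fibrosis.

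The libraries were 3' tag libraries, in which a transcript gives reads near its 3' end, so levels in counts per 1e+06 counts (CPM) need no division by length. Counts in genes came to 892498 to 1922569 per oil library and 812320 to 1912946 per CCl4 library. A gene with no count could still lie at up to 3 counts, or 1.43 to 3.76 CPM in oil and 1.72 to 4.15 CPM in CCl4 libraries. Libraries of a group differed among themselves: the rank correlation over tested genes was 0.611 to 0.867 between oil libraries (median 0.791) and 0.542 to 0.738 between CCl4 libraries (median 0.648), against a median of 0.596 between groups. Among genes of 100 CPM or more, the median coefficient of variation between mice was 0.319 in oil and 0.507 in CCl4. Sex-linked transcripts went against the labels. All 5 oil libraries held 72 to 755 counts of Xist, the transcript of the inactive X chromosome, and 0 counts of Y-linked genes, while the CCl4 libraries held 2 to 17 counts of Xist and 135 to 358 Y-linked counts. The index numbers of the oil and CCl4 libraries also run in separate series. Treatment, sex-linked transcripts and index series therefore cannot be told apart within the wild-type mice, and this holds for every difference below.

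Of 24411 genes in the table, 9001 were abundant enough to test, and 462 of them (5.13%) changed at an adjusted p under 0.05 in edgeR's quasi-likelihood test with Benjamini-Hochberg adjustment. After CCl4, 274 genes (3.04%) were higher and 188 (2.09%) were lower. The groups did not overlap in 592 tested genes (6.58%), 282 of them with every CCl4 mouse above every oil mouse (3.13%) and 310 with every CCl4 mouse below (3.44%). Among the 462 changed genes, 319 did not overlap. The median log2 fold change was 2.99 among the higher genes, -1.90 among the lower genes and 0.06 over all tested genes. Calls were concentrated at high levels: 38.8% of the 242 genes of 500 CPM or more changed, against 3.34% of the 4192 genes between 20 and 100 CPM and 0.697% of the 2725 between 5 and 20 CPM. The balance of directions depended on scaling. With library totals in place of TMM scaling, 532 genes changed and 41.0% of them were higher, against 59.3% with TMM, and the median of all genes moved from 0.06 to -0.13, a shift that lies under every fold change given here. Leaving out CCl4 mouse 1 gave 759 changed genes, of which 44.3% were higher, and leaving out oil mouse 3 gave 302. In the 10 wild-type libraries alone 324 of 7198 tested genes changed, 289 of them among the 462.

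In summed level the changed genes were a large part of each library. The 188 lower genes together stood at 178200, 133100, 193700, 176000 and 194500 CPM in oil mice 1 to 5, and at 80090, 52230, 51180, 41640 and 47120 CPM in CCl4 mice 1 to 5. The 274 higher genes stood at 30230, 33780, 29610, 27830 and 26710 CPM in the oil mice and at 146700, 163200, 193500, 136000 and 134000 CPM in the CCl4 mice. The groups did not overlap in either sum, which follows from how the genes were called. C1qa and Cd5l alone made up 27.4% of the summed loss, and 12 genes made up 50.1% of it. The gain was spread wider, with 39.1% of it in the top 12 genes.

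**Figure D1:**
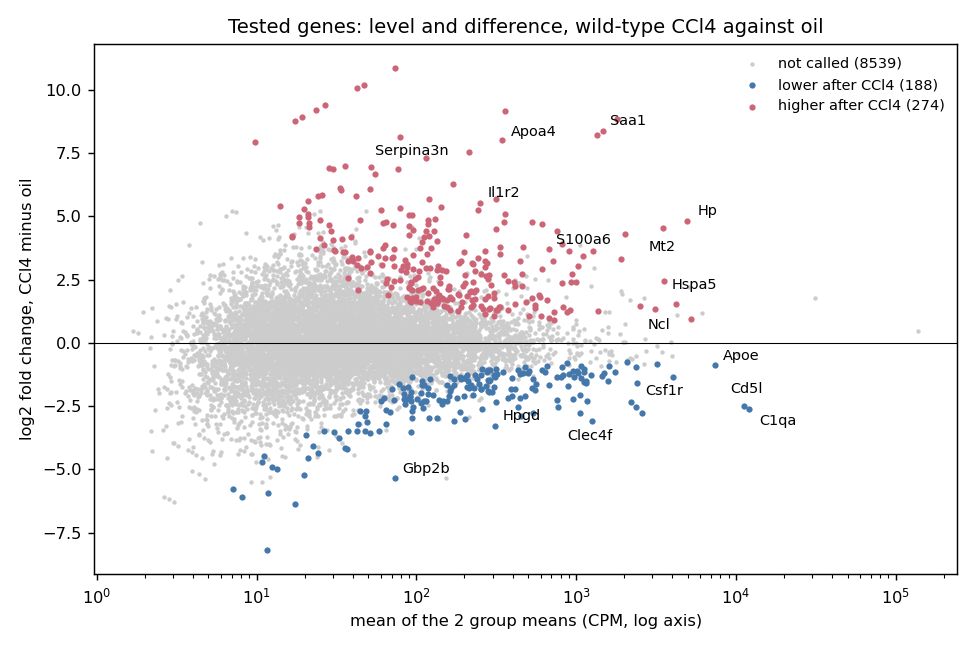
Each point is a tested gene, placed by the mean of its oil and CCl4 group means in CPM (log axis) and by its log2 fold change, CCl4 minus oil (n = 5 mice a group). The 188 genes called lower (blue) reach higher levels than most called genes, led by C1qa and Cd5l, while the 274 called higher (red) reach larger fold changes, up to 10.9.

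The largest losses in mean CPM were those of C1qa and Cd5l, which mark Kupffer cells. Of 20 listed Kupffer cell genes, all tested, 15 fell and 0 rose, with a median log2 fold change of -2.33. C1qa, a chain of the complement recognition protein C1q that tags dying cells (chr4:136895917-136898803 on GRCm38), was at 23000, 12930, 24040, 16810 and 26640 CPM in the oil mice and 8201, 2253, 3421, 1277 and 1746 CPM in the CCl4 mice. It was lowest among oil mice in mouse 2 and highest among CCl4 mice in mouse 1, yet the groups did not overlap. Its log2 fold change was -2.61 (SE 0.44, adjusted p = 0.0019). Positions here and below are those of whole genes in GENCODE M21. The chains encoded beside it on chromosome 4 fell with it, C1qb by a log2 fold change of -2.26 (SE 0.30) and C1qc by -2.07 (SE 0.29). Cd5l (chr3:87357881-87371073), a secreted protein that binds lipids and sustains macrophage survival, was at 18050, 10910, 23140, 22970 and 20780 CPM in the oil mice and 7763, 2465, 3187, 1923 and 1584 CPM in the CCl4 mice. Again oil mouse 2 was the lowest of its group and CCl4 mouse 1 the highest of its own, with no overlap. The log2 fold change of Cd5l was -2.5 (SE 0.34, adjusted p = 1.19e-04).

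Several membrane receptors of the list fell. Clec4f (chr6:83644542-83656187), a lectin restricted to Kupffer cells in mice, was at 2510, 1199, 2563, 2164 and 2867 CPM in the oil mice and 574, 196, 193, 122 and 255 CPM in the CCl4 mice, and its log2 fold change was -3.08 (SE 0.34, adjusted p = 1.10e-06). Every CCl4 mouse was below every oil mouse. Csf1r, the receptor for the growth factors CSF1 and IL-34 on which macrophages depend, was at 4494, 1436, 4232, 4124 and 4039 CPM in the oil mice and 1330, 516, 763, 425 and 581 CPM in the CCl4 mice. Oil mouse 2, at 1436 CPM, lay just above CCl4 mouse 1, at 1330 CPM, and the other oil mice lay far above. Its log2 fold change was -2.34 (SE 0.31, adjusted p = 1.58e-05). Vsig4, a complement receptor that captures bacteria, changed by -2.78 (SE 0.34); Folr2, a folate receptor, by -2.90 (SE 0.40); Cd163, the scavenger receptor for haemoglobin bound to haptoglobin, by -2.52 (SE 0.41); and Slc40a1, which encodes the iron exporter ferroportin, by -2.53 (SE 0.35). None of these overlapped between groups. Adgre1, which encodes the F4/80 antigen used for capture, was at 324 ± 110.2 CPM in oil mice and 76 ± 66.9 CPM in CCl4 mice (SD, n = 5) with overlap, and its call (adjusted p = 0.0212) was lost without oil mouse 1, oil mouse 4 or CCl4 mouse 3, at up to 0.0607.

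The 5 listed Kupffer genes that did not pass were Marco, Id3, Timd4, Cdh5 and C6. Marco, a scavenger receptor for bacteria and particles, was at 1149, 689.9, 1586, 1388 and 1174 CPM in the oil mice and 1036, 1937, 2101, 591 and 618 CPM in the CCl4 mice. Its groups overlapped, with CCl4 mice 2 and 3 above and mice 4 and 5 below every oil mouse. The log2 fold change of 0.07 (SE 0.37, adjusted p = 0.951) turned negative with library totals and with voom weights. Id3, a transcriptional regulator of Kupffer cell development, had a log2 fold change of -0.93 (SE 0.31, adjusted p = 0.0773). Timd4, with which Kupffer cells bind phosphatidylserine on dying cells, was at 177 to 526 CPM in oil mice and 0 to 118 CPM in CCl4 mice without overlap, but its adjusted p was 0.092. In bulk samples such as these, fewer cells of a type and less RNA of its genes per cell cannot be told apart. Endothelial markers, the other cells of the sinusoid, showed 0 calls among 14 tested genes (median log2 fold change -0.06). With 5.13% of all tested genes called, 0 of 14 lies near that share.

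**Figure D2:**
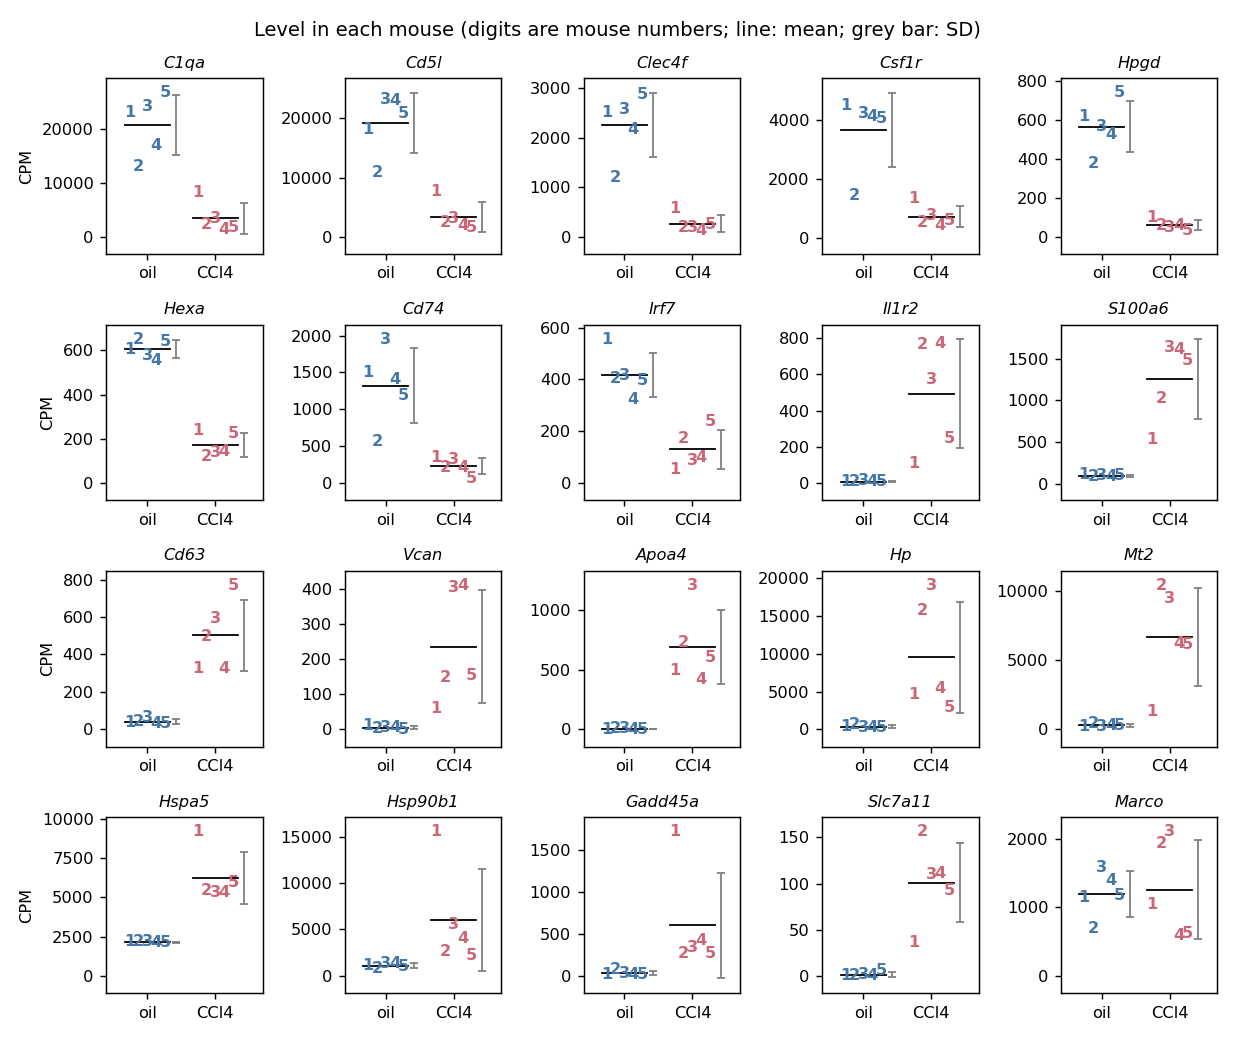
Each panel gives 1 gene's level in CPM on a linear axis that starts just under 0, with the digit as mouse number, a line at the group mean and a grey bar of SD on either side of it (n = 5 mice a group). Oil mouse 2 is the lowest oil mouse for C1qa, Cd5l, Clec4f and Csf1r, and CCl4 mouse 1 stands above the other CCl4 mice for Hsp90b1 and Gadd45a and below them for Mt2.

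Complement genes moved in both directions. Among 23 tested, 5 fell and 4 rose. Beside the C1q chains and Vsig4, properdin (Cfp), a myeloid stabiliser of the alternative pathway convertase, fell by a log2 fold change of -2.76 (SE 0.33, adjusted p = 3.30e-06), from 933 ± 149 CPM in oil mice to 138 ± 56.6 CPM in CCl4 mice (SD, n = 5). Among those that rose were Cfi (factor I, 2.82 (SE 0.81)), C8a (4.27 (SE 1.14)) and C9 (3.11 (SE 0.80)), the first an inhibitor and the others parts of the membrane attack complex, and all are known mainly as hepatocyte products. The calls of Cfi and C8a were each lost in 7 of the 10 fits that leave out 1 mouse, and that of C9 without oil mouse 4 or 5. With the index series as a term the log2 fold changes were 0.45 (SE 1.28), 0.95 (SE 1.37) and -0.29 (SE 1.13), so that of C9 turned, and 0 complement genes passed as higher. In the fit without that term, the number that rose was 1 or 2 without oil mouse 3, 4 or 5 or CCl4 mouse 2 or 3, 7 without CCl4 mouse 1 and 8 with DESeq2 or voom weights. C3, the central component, was at 805 ± 836 CPM in oil mice and 3076 ± 1205 CPM in CCl4 mice and did not pass (adjusted p = 0.116).

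Scavenging and recognition receptors fell in part. Of 18 tested receptors for debris and dying cells, 4 fell and 1 rose. Axl, a receptor kinase through which macrophages clear dying cells, was at 676, 612, 633, 676 and 647 CPM in the oil mice and 154, 198, 97.3, 114 and 188 CPM in the CCl4 mice. Oil mice lay within a narrow range and the highest CCl4 mouse was at 198 CPM. Axl had a log2 fold change of -2.11 (SE 0.29, adjusted p = 2.48e-05). Mrc1, the mannose receptor, changed by -1.80 (SE 0.39) on the log2 scale with overlap, as CCl4 mouse 1 at 578 CPM lay above oil mouse 2 at 520 CPM. Lrp1, a receptor for proteases and apolipoprotein E, changed by -1.05 (SE 0.26), and Cd163 is given above. Cd300lf, an inhibitory lipid receptor, was the receptor that rose (0.98 (SE 0.27)), a call lost in 5 of the 10 fits that leave out 1 mouse.

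The list of Fc receptors, which as drawn up also holds the ficolin Fcna, had 5 of 8 tested members lower and 0 higher. Fcna, a soluble lectin of Kupffer cells that starts the lectin pathway of complement, fell from 4482 ± 1052 CPM in oil mice to 655 ± 519.6 CPM in CCl4 mice (SD, n = 5), a log2 fold change of -2.77 (SE 0.38, adjusted p = 8.50e-05). The others were the signalling chain Fcer1g (-1.25 (SE 0.30)), the IgG receptors Fcgr4 (-1.64 (SE 0.36)) and Fcgr3 (-1.19 (SE 0.34)), and the neonatal Fc receptor Fcgrt (-1.77 (SE 0.46)). The call of Fcgr3 was lost in 7 of the 10 fits that leave out 1 mouse, and that of Fcgrt without oil mouse 5 or CCl4 mouse 3. Tyrobp, the adaptor DAP12 shared by many activating receptors, fell as well, from 1091 ± 113 CPM in oil mice to 432 ± 97.3 CPM in CCl4 mice, with a log2 fold change of -1.33 (SE 0.26, adjusted p = 0.00135). Trem1, an activating receptor that signals through DAP12, went the other way at 2.69 (SE 0.54).

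Lectins of myeloid cells split. Of 16 tested, 3 fell and 2 rose. The inhibitory receptor Clec4a3 changed by -1.47 (SE 0.34) on the log2 scale, Clec1b (CLEC-2) by -1.95 (SE 0.41) and Clec10a by -2.89 (SE 0.88), the last a call lost in 8 of the 10 fits that leave out 1 mouse. Clec4e (Mincle), an activating receptor for damage signals and mycobacterial lipid, was at 13.2, 3.76, 3.57, 11.5 and 11 CPM in the oil mice and 39.9, 145, 86.8, 440.2 and 423 CPM in the CCl4 mice. All CCl4 mice lay above all oil mice, mice 4 and 5 by the most, and the log2 fold change was 4.70 (SE 0.74, adjusted p = 1.35e-04). Clec4d (MCL), its partner and neighbour on chromosome 6, rose by 3.47 (SE 0.75), with oil mouse 2 at 47.6 CPM overlapping CCl4 mouse 1 at 45.9 CPM.

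Part of the lysosomal genes fell. Of 36 tested enzymes and membrane proteins, 14 fell and 3 rose, with a median log2 fold change of -1.0. The number that fell was 7 to 9 without oil mouse 1, 3, 4 or 5 or CCl4 mouse 2, 3 or 4, 8 in the wild-type libraries alone and 0 with the index series as a term. Hexa, a subunit of beta-hexosaminidase, was at 605, 651, 579, 556 and 639.8 CPM in the oil mice and 237, 119, 136, 144 and 224 CPM in the CCl4 mice. Oil mice differed little and the highest CCl4 mouse was at 237 CPM, a log2 fold change of -1.82 (SE 0.29, adjusted p = 1.35e-04). Cathepsin B (Ctsb) changed by -1.18 (SE 0.25) and the cholesterol-binding protein Npc2 by -1.16 (SE 0.24), both without overlap. Psap, the precursor of the saposins, and Grn, progranulin, were called lower (-0.82 (SE 0.25) and -1.36 (SE 0.36)), but their groups overlapped and the calls were lost in 8 and 7 of the 10 fits that leave out 1 mouse. The 3 that rose were Cd63, a tetraspanin of late endosomes and granules, cathepsin L (Ctsl, 1.79 (SE 0.36)) and alpha-galactosidase A (Gla, 1.76 (SE 0.50)). Cd63 was at 33.8, 42.6, 60.7, 28.8 and 33.5 CPM in the oil mice and 323, 497, 594, 324 and 768 CPM in the CCl4 mice, with no overlap and a log2 fold change of 3.65 (SE 0.40, adjusted p = 1.10e-06). The call of Gla was lost in 5 of the 10 fits. The proton pump that acidifies lysosomes had 1 of 14 members lower and 0 higher (median -0.19). In the autophagy list Sqstm1, the cargo receptor p62, rose by 1.39 (SE 0.30, adjusted p = 0.004) and Fam134b, a receptor for turnover of the endoplasmic reticulum, by 3.16 (SE 0.61), the 2 calls among 23 tested. The shares called, 7.14% for the proton pump and 8.7% for autophagy, lie near the 5.13% over all tested genes.

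Lipid handling followed several directions. Apoe, the apolipoprotein that macrophages secrete with cholesterol, was at 9666 ± 1184 CPM in oil mice and 5223 ± 1335 CPM in CCl4 mice (SD, n = 5), one of the most abundant transcripts of both groups. Its log2 fold change was -0.89 (SE 0.23, adjusted p = 0.0188), a call lost without oil mouse 1, oil mouse 5 or CCl4 mouse 4 (up to 0.0586) although the groups did not overlap. Nr1h3, the oxysterol sensor that drives cholesterol efflux genes, and Npc2 were the other 2 of 3 lower genes among 23 tested for cholesterol. Plin2, which coats lipid droplets, rose by 1.84 (SE 0.36, adjusted p = 0.00158), and Fabp4, a fatty acid carrier, by 2.35 (SE 0.57). Of 18 genes known from lipid- and scar-associated macrophages, 3 rose (Cd63, Plin2 and Fabp4) and 5 fell (Apoe, Tyrobp, Ctsb, Ctsd and Lipa). Ctsd changed by -0.93 (SE 0.24) and Lipa by -1.38 (SE 0.36), calls lost without oil mouse 1 or CCl4 mouse 2 and without CCl4 mouse 3.

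Hpgd (chr8:56294585-56321043), the dehydrogenase that inactivates prostaglandins, was at 621, 379, 566, 527 and 742 CPM in the oil mice and 101, 55.4, 47.7, 55 and 30.4 CPM in the CCl4 mice. Every CCl4 mouse lay below every oil mouse, and the log2 fold change was -3.28 (SE 0.37, adjusted p = 1.20e-06). The phospholipases Pla2g4a (-3.48 (SE 0.90)) and Pla2g15 (-2.53 (SE 0.67)) were the other lower genes among 16 for prostaglandins and leukotrienes, with 0 higher. The call of Pla2g4a was lost without oil mouse 2 or CCl4 mouse 3, and that of Pla2g15 in 6 of the 10 fits. Ptgs1 (cyclooxygenase 1) was at 245 to 604 CPM in oil mice and 0.572 to 216 CPM in CCl4 mice without overlap but did not pass (adjusted p = 0.13). Cybb, the catalytic subunit of the phagocyte NADPH oxidase, changed by -1.13 (SE 0.26, adjusted p = 0.00864), the single call among 7 subunits.

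Most genes of antigen presentation on MHC class II fell. Of 8 tested genes 6 fell and 0 rose, the median log2 fold change was -1.53, and the number that fell was 6 with any 1 mouse left out. With the index series as a term 0 of the 8 passed, at a median of -1.58. Cd74, the invariant chain that guides class II molecules to endosomes, was at 1504, 557, 1952, 1402 and 1191 CPM in the oil mice and 347, 210.4, 321, 207 and 60.9 CPM in the CCl4 mice. Oil mouse 2 was lowest of its group but above every CCl4 mouse, and the log2 fold change was -2.52 (SE 0.40, adjusted p = 1.57e-04). H2-Ab1, a class II chain, changed by -1.71 (SE 0.27) and H2-DMb1, which helps load peptide, by -1.88 (SE 0.27). Class I presentation had 1 of 14 lower, the immunoproteasome subunit Psmb9 (-1.44 (SE 0.42), a call lost in 6 of the 10 fits that leave out 1 mouse), with a median of -0.81. That call is 7.14% of the class I list, near the 5.13% called over all tested genes.

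Interferon-inducible genes leaned to lower levels. Of 32 tested, 3 fell, 0 rose and 23 had a negative log2 fold change (median -0.66). The 3 calls were 9.38% of the list, against 2.09% called lower over all tested genes. Irf7, the factor that amplifies type I interferon, was at 555, 403, 416, 323 and 395 CPM in the oil mice and 53.2, 172, 85.9, 98.5 and 237 CPM in the CCl4 mice. The groups did not overlap, and its log2 fold change was -1.70 (SE 0.39, adjusted p = 0.00694). Ifi27l2a changed by -2.63 (SE 0.41, adjusted p = 1.24e-04), and Bst2 (tetherin) by -1.12 (SE 0.34), the latter a call lost in 7 of the 10 fits that leave out 1 mouse. Among guanylate-binding and immunity-related GTPases, which interferon-gamma induces, all 12 tested genes had a negative log2 fold change (median -1.39) and 2 fell (16.7%). Gbp2b was at 183, 10.0, 276, 90.2 and 162 CPM in the oil mice and 9.97, 1.01, 0.954, 4.01 and 0 CPM in the CCl4 mice; oil mouse 2, at 10.0 CPM, was level with CCl4 mouse 1, at 9.97 CPM, and the other oil mice were at 90.2 CPM or more. Its log2 fold change was -5.35 (SE 0.86, adjusted p = 1.54e-04). Gbp7 was the other (-2.30 (SE 0.67), lost in 8 of the 10 fits). Gbp5 was at 158 to 357 CPM in oil mice and 1.38 to 151 CPM in CCl4 mice without overlap and did not pass (adjusted p = 0.219). With the index series as a term the interferon list's median was 0.24, so its sign depends on that term, while the GTPase list's was -1.02.

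Among 20 transcription factors of macrophage lineages, 5 fell and 1 rose. Nr1h3 was at 616, 954, 887, 691 and 733 CPM in the oil mice and 299.8, 199, 257, 126 and 6.92 CPM in the CCl4 mice, with CCl4 mouse 5 far under the rest, and its log2 fold change was -2.12 (SE 0.50, adjusted p = 0.0143). Spic, induced by haem and needed for iron-recycling macrophages, was at 211, 209, 186, 199.7 and 126 CPM in the oil mice and 37.2, 28.2, 53.5, 21.8 and 47 CPM in the CCl4 mice. It did not overlap and changed by -2.32 (SE 0.44, adjusted p = 0.00131). Klf4 changed by -1.38 (SE 0.33) and Rxra, the partner of LXR-alpha, by -1.43 (SE 0.40), a call lost in 7 of the 10 fits. The gene that rose was Smad4 (1.65 (SE 0.50)), also lost in 7 of them. Without oil mouse 1 the number that fell was 3. Cebpb, a factor of emergency granulopoiesis and of the acute phase, was at 217 ± 89.6 CPM in oil mice and 452 ± 199 CPM in CCl4 mice and did not pass (adjusted p = 0.0919). Batf3, a factor of dendritic cells, changed by -3.56 (SE 0.83, adjusted p = 0.00881). Immediate-early genes had 2 lower, Fosb (-1.44 (SE 0.31, adjusted p = 0.00411)) and Klf4, and 1 higher, Ier3 (1.28 (SE 0.29, adjusted p = 0.00669)), among 24. Jun was at 1958 to 2758 CPM in oil mice and 1029 to 1599 CPM in CCl4 mice without overlap, at an adjusted p of 0.0521.

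Of the tested cytokine genes 11.1% were called and of the chemokine genes 14.3%, receptors included, against 5.13% over all tested genes. Most of those calls were higher after CCl4. Il1r2 (chr1:40074079-40125231), the decoy receptor that binds IL-1 without signalling, was at 10.3, 8.76, 13.6, 8.64 and 11 CPM in the oil mice and 110.4, 763, 569, 766 and 249 CPM in the CCl4 mice. The oil mice lay close together, and the lowest CCl4 mouse, mouse 1, was far above them. The log2 fold change of 5.53 (SE 0.51, adjusted p = 3.28e-08) carried the second smallest p of all genes. The signalling receptor Il1r1 also rose (4.87 (SE 1.14)), as did Osm, the cytokine oncostatin M, which acts on hepatocytes and stellate cells. Osm was at 2.82, 8.76, 5.00, 1.92 and 8.60 CPM in the oil mice and 31.2, 173, 75.4, 385 and 246 CPM in the CCl4 mice, without overlap and with a log2 fold change of 5.04 (SE 0.91, adjusted p = 6.80e-04). Together with the loss of Csf1r these were the 4 calls among 36 cytokine genes (median log2 fold change 0.09). Without CCl4 mouse 1, and with library totals, 4 of the 36 fell in place of 1, and without CCl4 mouse 5, 5 rose in place of 3. Of 21 chemokine genes, 3 rose and 0 fell: the ligand Ccl9 (2.97 (SE 0.59)), its receptor Ccr1 (5.23 (SE 1.01)) and Cxcr4 (2.89 (SE 0.60)), which retains leukocytes in tissue. Without CCl4 mouse 1, and with library totals, 2 of the 21 fell. Cxcl2, the neutrophil attractant, was abundant in both groups at 4665, 2187, 4027, 3632 and 4269 CPM in the oil mice and 3020, 11380, 5741, 17210 and 5428 CPM in the CCl4 mice. CCl4 mice 2 and 4 were far above the oil mice and mouse 1 was below 4 of the 5 oil mice, and the gene did not pass (adjusted p = 0.174).

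Markers of monocytes and neutrophils rose in part. Of 14 monocyte and recruited macrophage markers, 6 rose and 0 fell (median 1.96). Vcan, the proteoglycan versican, was at 10.3, 2.5, 4.29, 5.76 and 0 CPM in the oil mice and 60.5, 148, 403, 409 and 154 CPM in the CCl4 mice. The groups did not overlap, and the log2 fold change was 5.70 (SE 0.78, adjusted p = 2.48e-05). Chil3 (Ym1) rose by 3.98 (SE 0.72, adjusted p = 6.71e-04). Itgam, the CD11b antigen against which the cells had been depleted, was at 39.7 ± 17.4 CPM in oil mice and 173 ± 79.2 CPM in CCl4 mice and rose by 2.12 (SE 0.53, adjusted p = 0.0139), a call lost without CCl4 mouse 3 (adjusted p = 0.0598). Of 10 tested neutrophil markers 4 rose: Mmp8, Lcn2, S100a9 and G0s2. Mmp8, a collagenase of neutrophil granules, was at 6.58, 3.76, 11.4, 1.92 and 13.9 CPM in the oil mice and 37.2, 216, 169.9, 472 and 244 CPM in the CCl4 mice, a log2 fold change of 4.86 (SE 0.77, adjusted p = 1.35e-04). Lcn2, the iron-siderophore scavenger lipocalin 2, rose by 6.28 (SE 0.90); CCl4 mouse 5, at 6.92 CPM, was level with the oil mice, and the other 4 were at 203 CPM or more. G0s2 rose by 5.25 (SE 0.87). S100a9, a subunit of the alarmin calprotectin, rose by 3.62 (SE 0.85, adjusted p = 0.0265), a call lost in 6 of the 10 fits that leave out 1 mouse, and its partner S100a8 did not pass (2.94 (SE 0.80, adjusted p = 0.0537)). The summed neutrophil markers stood at 574, 1779, 384, 228 and 822 CPM in the oil mice and 1730, 7724, 8317, 12430 and 1341 CPM in the CCl4 mice, so CCl4 mice 1 and 5 lay within the oil range and mice 2 to 4 above it.

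Some S100 proteins, annexins and matrix genes rose. Of 15 S100 proteins and annexins, 6 rose and 0 fell (median 1.98), and 3 without oil mouse 3, 4 or 5 or CCl4 mouse 3 or 4. S100a6 (calcyclin, chr3:90612882-90624181), a calcium sensor of growing and motile cells, was at 115, 82.6, 101, 82.6 and 101 CPM in the oil mice and 528, 1026, 1636, 1614 and 1480 CPM in the CCl4 mice. CCl4 mouse 1 was the lowest of its group and still above every oil mouse, and the log2 fold change was 3.70 (SE 0.42, adjusted p = 1.20e-06). S100a4, encoded beside it on chromosome 3 and found in monocytes and inflammatory macrophages, rose by 2.93 (SE 0.42, adjusted p = 6.53e-05), and annexin A2 (Anxa2), a membrane-bound activator of plasmin, by 1.98 (SE 0.37, adjusted p = 0.00112). Of 24 matrix proteins and matrix-degrading enzymes, 12 rose and 2 fell (median 2.29), and 7 rose without oil mouse 4 or CCl4 mouse 2. Fn1, fibronectin, was at 195, 438, 316, 132 and 164 CPM in the oil mice and 1822, 1633, 2267, 1406 and 1101 CPM in the CCl4 mice, with no overlap and a log2 fold change of 2.73 (SE 0.41, adjusted p = 1.35e-04). Macrophage elastase (Mmp12) rose by 3.76 (SE 0.71) and the sheddase Adam8 by 4.42 (SE 0.77). The genes that fell were the protease inhibitor Timp2 (-1.84 (SE 0.41)) and Mmp27 (-5.92 (SE 1.53)), the latter a low gene whose call was lost without oil mouse 4. Of 12 markers of collagen-producing stellate cells only 5 could be tested, all with a negative log2 fold change. Among them 0 were called, and 2 were called lower with DESeq2. With 5.13% of all tested genes called, 0 of 5 says little about these cells. Hepatocytes also make fibronectin. With the index series as a term Fn1 changed by 1.15 (SE 0.57), whereas S100a6 changed by 5.19 (SE 0.59) and Vcan by 6.16 (SE 1.18).

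**Figure D3:**
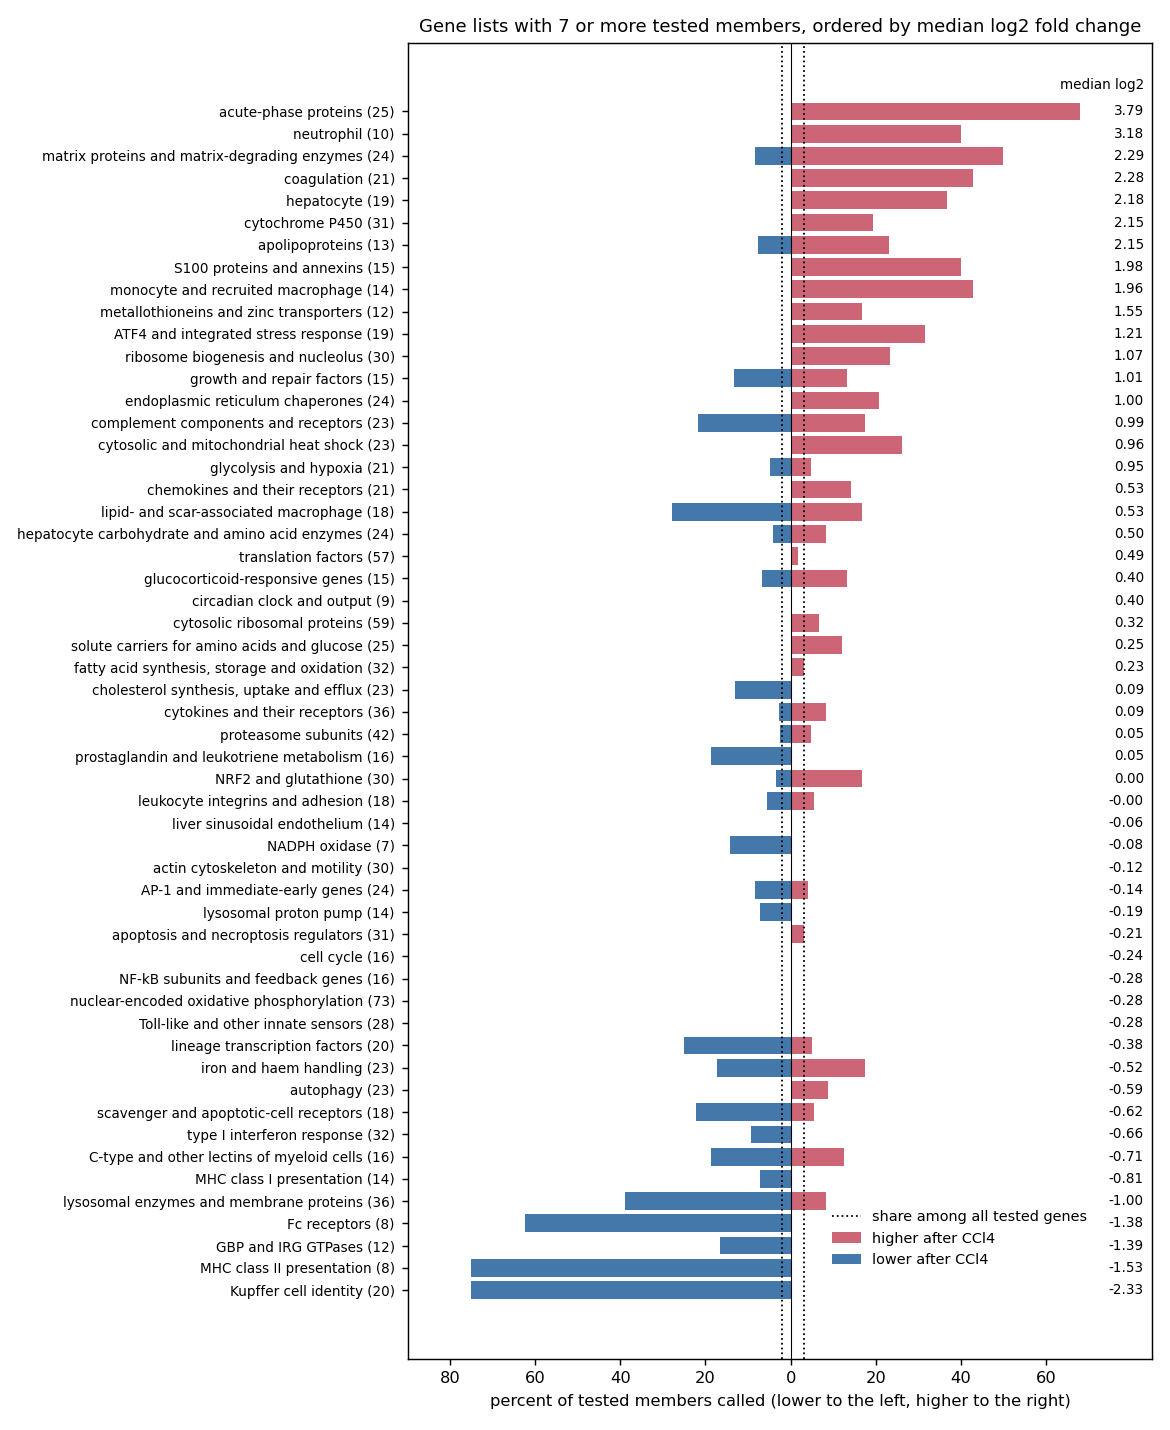
Bars give the percent of each list's tested members (number in brackets) called lower (left, blue) or higher (right, red) after CCl4, with the median log2 fold change at the right. Dotted lines mark the shares over all tested genes, 2.09% lower and 3.04% higher. Lists of sex-biased liver genes and lists with fewer tested members are not drawn; among those drawn, acute-phase and matrix genes have the longest bars to the right, and Kupffer cell and MHC class II genes the longest to the left.

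A few metal-binding and antioxidant genes rose. Mt2 (chr8:94172664-94173568) encodes a metallothionein, a small zinc- and copper-binding protein induced by metals, glucocorticoids and oxidants. It was at 235, 447, 204, 284 and 250.4 CPM in the oil mice and 1310, 10360, 9392, 6206 and 6082 CPM in the CCl4 mice. CCl4 mouse 1 was well below the other CCl4 mice but above every oil mouse, and the log2 fold change was 4.55 (SE 0.50, adjusted p = 2.48e-05). Mt1, beside it on chromosome 8, rose by 2.42 (SE 0.37, adjusted p = 1.04e-04), with CCl4 mouse 1, at 398 CPM, within the oil range. These were the 2 calls among 12 metallothionein and zinc transporter genes. Of 30 genes of the NRF2 and glutathione programme, 5 rose and 1 fell, and the median was 0.00. Gclc, which encodes the rate-limiting subunit for glutathione synthesis, was at 41.3, 12.5, 19.3, 9.60 and 40.6 CPM in the oil mice and 109.7, 489, 592, 556 and 1685 CPM in the CCl4 mice, with no overlap, CCl4 mouse 5 the highest and a log2 fold change of 4.78 (SE 0.69, adjusted p = 1.96e-04). Slc7a11, the cystine importer that feeds the same synthesis, is described with the stress genes below. Srxn1 (sulfiredoxin) rose by 2.42 (SE 0.38, adjusted p = 1.24e-04), Mgst1, a microsomal glutathione transferase abundant in liver, by 2.35 (SE 0.52), and Txnrd1, thioredoxin reductase, by 1.04 (SE 0.31), a call lost in 9 of the 10 fits that leave out 1 mouse. Gpx1, a glutathione peroxidase, changed by -1.30 (SE 0.24, adjusted p = 0.00104). With the index series as a term 1 of the 30 passed as higher, Gclc, and 0 as lower. The log2 fold change was then 1.31 (SE 0.60) for Srxn1, 0.58 (SE 0.805) for Mgst1, 0.06 (SE 0.52) for Txnrd1 and -1.33 (SE 0.44) for Gpx1. Hmox1, haem oxygenase 1, was spread widely at 1871, 1013, 3891, 6992 and 3361 CPM in the oil mice and 4232, 1904, 2132, 943 and 361 CPM in the CCl4 mice and did not pass (adjusted p = 0.59).

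Iron handling showed 4 gains and 4 losses among 23 genes. The losses were Cd163, Slc40a1, Spic and biliverdin reductase (Blvra, -1.76 (SE 0.49)), genes by which macrophages take up haemoglobin, degrade haem and release iron. The gains were the plasma proteins haptoglobin (Hp), haemopexin (Hpx, 3.43 (SE 0.75)) and ceruloplasmin (Cp, 2.73 (SE 0.41, adjusted p = 7.19e-05)), and Bach1, a haem-sensing repressor (1.65 (SE 0.50)). The number that rose was 2 without oil mouse 3 or 5. The calls of Bach1 and Blvra were lost in 7 and 6 of the 10 fits that leave out 1 mouse, and that of Hpx without oil mouse 3 or 5. With the index series as a term 0 of the 23 passed as higher and 2 as lower, Cd163 and Slc40a1. The log2 fold change was then 2.33 (SE 0.80) for Hp, 0.87 (SE 0.82) for Hpx and 1.395 (SE 0.61) for Cp.

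Some protein-folding and stress genes rose, as counted after the sequences. The endoplasmic reticulum answers unfolded protein by inducing chaperones through ATF6 and XBP1, which act at the endoplasmic reticulum stress element, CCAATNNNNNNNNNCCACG, where N is any base. Amino acid shortage and other stresses raise ATF4, which acts at elements with the core TGATGNAA. The 250 bases upstream of the RefSeq start (GRCm38.p6) are shown for 3 chaperones and for Slc7a11, because these genes rose and their windows hold such letters. Capitals mark each match on either strand, to the first element in the chaperones and to the second in Slc7a11. No match overlaps another. The first element was found in 0.122% of 27025 promoter windows of the same length and the second in 3.53%. Hspa5 lies at chr2:34771840-34772089 (plus strand), Hsp90b1 at chr10:86705445-86705694, Calr at chr8:84846932-84847181 and Slc7a11 at chr3:50443614-50443863 (minus strand for these 3).
Hspa5: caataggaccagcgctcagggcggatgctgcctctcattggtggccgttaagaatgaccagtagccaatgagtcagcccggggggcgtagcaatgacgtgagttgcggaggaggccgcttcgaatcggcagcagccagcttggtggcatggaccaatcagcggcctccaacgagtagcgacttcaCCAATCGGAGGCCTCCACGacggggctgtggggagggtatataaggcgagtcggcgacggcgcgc
Hsp90b1: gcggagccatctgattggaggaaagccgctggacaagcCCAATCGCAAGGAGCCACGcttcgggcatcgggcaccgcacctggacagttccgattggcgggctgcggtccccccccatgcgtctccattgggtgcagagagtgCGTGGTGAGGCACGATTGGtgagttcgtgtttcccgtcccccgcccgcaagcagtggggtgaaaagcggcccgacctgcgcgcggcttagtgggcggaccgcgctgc
Calr: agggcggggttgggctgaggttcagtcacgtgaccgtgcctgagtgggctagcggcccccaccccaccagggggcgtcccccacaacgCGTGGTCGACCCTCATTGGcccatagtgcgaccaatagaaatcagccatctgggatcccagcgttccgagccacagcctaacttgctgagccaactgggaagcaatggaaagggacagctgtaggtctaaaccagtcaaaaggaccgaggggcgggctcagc
Slc7a11: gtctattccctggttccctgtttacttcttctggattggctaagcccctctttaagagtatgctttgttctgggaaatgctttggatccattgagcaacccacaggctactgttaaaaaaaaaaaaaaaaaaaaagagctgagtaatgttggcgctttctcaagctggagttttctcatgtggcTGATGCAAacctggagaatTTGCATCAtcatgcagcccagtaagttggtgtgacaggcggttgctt
The Hspa5 window holds 1 endoplasmic reticulum stress element, 65 to 47 bases before the start, Hsp90b1 holds 2 (212 to 194 and, as the reverse complement, 107 to 89) and Calr 1 (162 to 144, reverse complement). Slc7a11 holds 2 cores of the second element, 66 to 59 and, as the reverse complement, 47 to 40 bases before its start. The first element was not found in the window of P4hb, nor the second in those of Gadd45a, Ddit4 and Atf4. Each gene was searched for 1 of the elements only. A match describes letters only.

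Of 24 endoplasmic reticulum chaperones and folding enzymes, 5 rose and 0 fell, 21 had a positive log2 fold change and the median was 1.00. Hspa5 (BiP), the chaperone that binds the sensors of unfolded protein, was at 2186, 2157, 2157, 2091 and 2092 CPM in the oil mice and 9195, 5418, 5325, 5323 and 5938 CPM in the CCl4 mice. Oil mice stood between 2091 and 2186 CPM, 4 CCl4 mice stood between 5323 and 5938 CPM, and mouse 1 was at 9195 CPM. The log2 fold change was 1.55 (SE 0.23, adjusted p = 7.19e-05). Hsp90b1 (GRP94) was at 1094, 736, 1262, 1334 and 1039 CPM in the oil mice and 15520, 2618, 5542, 3979 and 2210 CPM in the CCl4 mice, with mouse 1 far above the rest, no overlap and a log2 fold change of 2.45 (SE 0.43, adjusted p = 0.00182). Calreticulin (Calr), the lectin chaperone of the same compartment, was at 1333, 1630, 1382, 1217 and 1076 CPM in the oil mice and 7914, 2395, 4323, 1875 and 1840 CPM in the CCl4 mice and changed by 1.47 (SE 0.35, adjusted p = 0.0143). P4hb, protein disulfide isomerase, rose by 1.71 (SE 0.29, adjusted p = 2.34e-04) without mouse 1 standing out. Dnajb9, a co-chaperone of BiP, rose by 2.55 (SE 0.76), a call lost in 7 of the 10 fits that leave out 1 mouse. The summed chaperone level was 7480, 7105, 7270, 7161 and 6589 CPM in the oil mice and 37790, 13950, 18920, 15720 and 14240 CPM in the CCl4 mice.

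In the ATF4 and integrated stress response list 6 of 19 genes rose, 0 fell and the median was 1.21; 4 rose without oil mouse 1. Atf4 itself was at 550.5, 353, 479, 380.2 and 427 CPM in the oil mice and 1085, 635, 888, 991 and 1464 CPM in the CCl4 mice, without overlap, and changed by 1.21 (SE 0.26, adjusted p = 0.00377). Gadd45a, an inducible brake on growth after DNA damage and other stress, was at 9.39, 70.1, 26.4, 13.4 and 17.7 CPM in the oil mice and 1717, 269, 335, 425 and 267 CPM in the CCl4 mice. CCl4 mouse 1 was 4.04 times the next mouse, and all CCl4 mice were above all oil mice. Its log2 fold change was 4.48 (SE 0.65, adjusted p = 1.35e-04). Slc7a11, whose promoter is printed above, was at 0, 0, 0.714, 0 and 5.26 CPM in the oil mice and 35.9, 156, 109.8, 111 and 92.7 CPM in the CCl4 mice, near 0 in oil mice and at 35.9 CPM or more after CCl4, a log2 fold change of 6.07 (SE 1.14, adjusted p = 0.00104). Ddit4 (REDD1), which restrains mTORC1, rose by 1.79 (SE 0.38, adjusted p = 0.00351), and the amino acid carrier Slc38a2 by 1.72 (SE 0.38, adjusted p = 0.00518). Of 23 cytosolic and mitochondrial heat shock genes, 6 rose and 0 fell (median 0.96), and 4 rose without oil mouse 4. Hspb8, which works with BAG3 in chaperone-assisted autophagy, was at 30.9 ± 18.4 CPM in oil mice and 365 ± 202 CPM in CCl4 mice and rose by 3.57 (SE 0.49, adjusted p = 2.77e-05). Hspd1, the mitochondrial chaperonin HSP60, rose by 2.24 (SE 0.38, adjusted p = 2.68e-04) and Hsp90ab1, the abundant cytosolic HSP90, by 0.96 (SE 0.23, adjusted p = 0.00881). Hspb1 (HSP27) was listed at 0 counts in 4 of 5 oil mice and at 0 to 5.01 CPM in oil mice and 17.9 to 193 CPM in CCl4 mice, a log2 fold change of 6.94 (SE 1.13, adjusted p = 1.83e-04). In the fit with the index series as a term 0 genes of these 3 lists passed, and their medians were 0.84, 1.07 and 0.80. The log2 fold change was then 0.79 (SE 0.37) for Hspa5, 0.82 (SE 0.47) for P4hb, 0.92 (SE 0.59) for Calr and 1.85 (SE 0.68) for Hsp90b1. In the wild-type libraries alone 3 heat shock genes rose in place of 6.

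Some genes for making ribosomes rose as well. Of 30 tested factors of the nucleolus and of ribosome assembly, 7 rose, 0 fell and 27 had a positive log2 fold change (median 1.07); 0 passed with the index series as a term. Ncl, nucleolin, was at 1549, 2092, 1892, 1465 and 1835 CPM in the oil mice and 9037, 2846, 4638, 2454 and 3469 CPM in the CCl4 mice. CCl4 mouse 1 was again the highest, and no CCl4 mouse fell below 2454 CPM, against at most 2092 CPM in oil mice. Ncl differed by a log2 fold change of 1.34 (SE 0.27, adjusted p = 0.00221). Npm1, nucleophosmin, was at 69.1 ± 39.2 CPM in oil mice and 325 ± 104 CPM in CCl4 mice and rose by 2.23 (SE 0.49, adjusted p = 0.00481), and Dkc1, which modifies ribosomal RNA, rose by 1.62 (SE 0.39). Nop14 and Wdr43, factors of small-subunit assembly, rose by 2.11 (SE 0.50) and 2.24 (SE 0.47) with overlap. Ribosomal proteins themselves had 4 of 59 higher and 0 lower (median 0.32), and 1 higher without oil mouse 1, 3 or 4. Those calls were 6.78% of the list, near the 5.13% called over all tested genes. In the proteasome Psmd11 (4.24 (SE 0.75, adjusted p = 4.55e-04)) and Psmd7 (1.78 (SE 0.32, adjusted p = 6.49e-04)), both lid subunits, rose among 42 tested, where 1 fell and the median was 0.05. The proteasome calls were 7.14% of that list, also near the share over all tested genes.

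Proteins that the liver secretes were among the genes with the larger fold increases. Of 25 acute-phase genes 17 rose and 0 fell, with a median log2 fold change of 3.79. Apoa4 (chr9:46240696-46243459), an apolipoprotein made in gut and, under stress, in liver, gave the smallest p of all genes. It was at 0.940, 3.76, 6.43, 0.960 and 0.956 CPM in the oil mice and 493, 724, 1203, 416 and 599 CPM in the CCl4 mice, a total of 16 counts in the oil group and 3880 in the CCl4 group, and its log2 fold change was 8.02 (SE 0.66, adjusted p = 2.25e-08). Haptoglobin (Hp), which binds free haemoglobin, was at 356, 617, 300.0, 201 and 206 CPM in the oil mice and 4609, 15690, 19040, 5339 and 2901 CPM in the CCl4 mice. CCl4 mice 2 and 3 stood far above the other 3, and all above the oil mice. Between the groups the log2 fold change was 4.83 (SE 0.78, adjusted p = 0.00265). The serum amyloids encoded in a cluster on chromosome 7 rose: Saa1 was at 7.52, 32.5, 5.00, 0 and 2.39 CPM in the oil mice and 791, 5160, 5539, 2782 and 392 CPM in the CCl4 mice, a log2 fold change of 8.38 (SE 1.39, adjusted p = 0.00344), Saa2 rose by 8.84 (SE 1.75) and Saa3, the form that macrophages also make, by 7.30 (SE 1.12, adjusted p = 2.03e-04). CCl4 mouse 5 was at 8.30 CPM of Saa2, within the oil range, while it was at 392 CPM of Saa1. Serpina3n, a protease inhibitor of the acute phase, rose from 2.02 ± 1.57 CPM in oil mice to 423 ± 290.4 CPM in CCl4 mice, a log2 fold change of 7.55 (SE 0.87, adjusted p = 1.59e-05).

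Fibrinogen and some other clotting genes rose. Of 21 coagulation genes 9 rose and 0 fell (median 2.28), and 5 rose without oil mouse 3 or 5. Fga was at 137 ± 124 CPM in oil mice and 1665 ± 643 CPM in CCl4 mice and rose by 3.61 (SE 0.76, adjusted p = 0.0138), Fgg by 3.90 (SE 0.81, adjusted p = 0.012) and Fgb by 3.33 (SE 0.77, adjusted p = 0.0251), the last a call lost in 5 of the 10 fits that leave out 1 mouse. F12 (factor XII) rose by 4.01 (SE 0.80) and thrombomodulin (Thbd) by 2.88 (SE 0.59). Among 13 apolipoproteins, Apoa4, Apom (3.34 (SE 0.79)) and clusterin (Clu, 2.71 (SE 0.49)) rose and Apoe fell. The number that rose, 3, was 6 without oil mouse 2, 8 in the wild-type libraries alone, 10 with voom weights and 11 with DESeq2. Apob was at 283 to 1188 CPM in oil mice and 1990 to 3990 CPM in CCl4 mice without overlap and did not pass (adjusted p = 0.13). Of 31 cytochrome P450 and partner genes 6 rose, 3 without oil mouse 4 or CCl4 mouse 3. Some of the 6 are also on the list of male-biased liver genes given below. With the index series as a term 0 of the 31 passed. Por, the reductase that supplies electrons to the P450 enzymes and without which they do not act on CCl4, was among the 6. It rose by 2.65 (SE 0.44, adjusted p = 2.24e-04), and its log2 fold change with that term was 2.80 (SE 0.74).

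These genes moved beside the signal of hepatocytes. Summed over 20 hepatocyte markers, the level was 8367, 18630, 6272, 3668 and 4888 CPM in the oil mice and 20500, 65150, 67840, 32650 and 45190 CPM in the CCl4 mice. Oil mouse 2, the highest oil mouse, was just under CCl4 mouse 1, the lowest CCl4 mouse, and all 19 tested markers had a positive log2 fold change, of which 7 passed (median 2.18; 3 or 4 without oil mouse 1, 3, 4 or 5, and 14 in the wild-type libraries alone). The 7 that passed included Hp, Hpx, Fga, Fgb, Fgg and Mup20, which are also described here among acute-phase, iron, clotting or male-biased genes. The hepatocyte sum therefore shares genes with those lines and is not separate from them. Alb, the most abundant of the 20 markers, was at 1746, 4304, 1405, 732 and 899 CPM in the oil mice and 1385, 12140, 9546, 5899 and 13050 CPM in the CCl4 mice, with overlap, and did not pass (adjusted p = 0.14). Of 7 genes known to be male-biased in liver, 4 rose (2 without oil mouse 3, 4 or 5), 0 fell and the median was 8.20. Mup20, a major urinary protein, was at 0.940, 3.76, 2.14, 0 and 0 CPM in the oil mice and 272, 1058, 1080, 510.0 and 682 CPM in the CCl4 mice (log2 fold change 9.17 (SE 1.96, adjusted p = 0.0168), a call lost without oil mouse 1, 3, 4 or 5), and Serpina1e was at 13.2, 13.8, 10.0, 0 and 9.08 CPM in the oil mice and 858, 2665, 2941, 3063 and 3996 CPM in the CCl4 mice (8.20 (SE 1.57, adjusted p = 0.00917)). With the index series as a term, 0 hepatocyte markers passed and their median was -0.40, as was that of the male-biased genes (-0.40). The acute-phase median was then 1.48, with 3 genes passing, coagulation 0.23, cytochrome P450 0.27 and apolipoproteins -0.63. Serpina3n (4.64 (SE 0.90)), Saa3 (8.07 (SE 1.60)) and Apoa4 (6.39 (SE 0.81)) passed in that fit. The part of hepatocyte RNA in these gains was not tested.

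Several lists of macrophage activation and metabolism had few or 0 calls. Over all tested genes 5.13% changed, so 0 or few calls in a short list say little. The oxidative phosphorylation list, with 73 tested genes, is longer, and its 0 calls lie below that share. The share called also rose with level, from 0.697% at 5 to 20 CPM to 38.8% at 500 CPM or more. No list in this report was compared with genes of like level. Toll-like and other innate sensors had 0 calls among 28 tested genes (median -0.28), NF-kB subunits and feedback genes 0 of 16 (-0.28), actin and motility genes 0 of 30 (-0.12), nuclear-encoded subunits of oxidative phosphorylation 0 of 73 (-0.28), cell cycle genes 0 of 16 (-0.24) and clock genes 0 of 9 (0.40). Nfkbia, the inhibitor that NF-kB itself induces, was at 4413, 3168, 4205, 4191 and 3352 CPM in the oil mice and 3909, 4369, 3814, 4597 and 2986 CPM in the CCl4 mice. The groups overlapped, and its log2 fold change was 0.03 (SE 0.24, adjusted p = 0.97), a value that turned negative with library totals. Actb was at 11810 ± 1807 CPM in oil mice and 8799 ± 2081 CPM in CCl4 mice (adjusted p = 0.242). A p that misses the threshold does not show equal levels: the median SE of a log2 fold change over all genes was 0.907. Translation factors had 1 of 57 higher (median 0.49), and fatty acid genes 1 of 32 (0.23).

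Mice of a group were not alike, and a few animals were at the ends of the range for many genes. CCl4 mouse 1 was the lowest CCl4 mouse for 116 of the 274 higher genes and the highest for 107 of the 188 lower genes. CCl4 mouse 5 was the highest for 105 of the higher genes and the lowest for 70 of the lower ones. Among oil mice, mouse 2 was lowest for 88 of the 188 lower genes. The Kupffer cell sum was at 64210, 38040, 71650, 64280 and 73810 CPM in the oil mice and 24790, 11370, 12900, 6632 and 7885 CPM in the CCl4 mice. CCl4 mouse 1 had the highest sum of its group, CCl4 mouse 4 the lowest and oil mouse 2 the lowest of its own, but no CCl4 mouse reached an oil mouse. That oil library also had the highest sums of hepatocyte (18630 CPM), endothelial (5729 CPM) and neutrophil markers (1779 CPM) among oil mice. Without CCl4 mouse 1, 17 of 20 Kupffer genes fell in place of 15, and 6 of 10 neutrophil markers rose in place of 4.

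**Figure D4:**
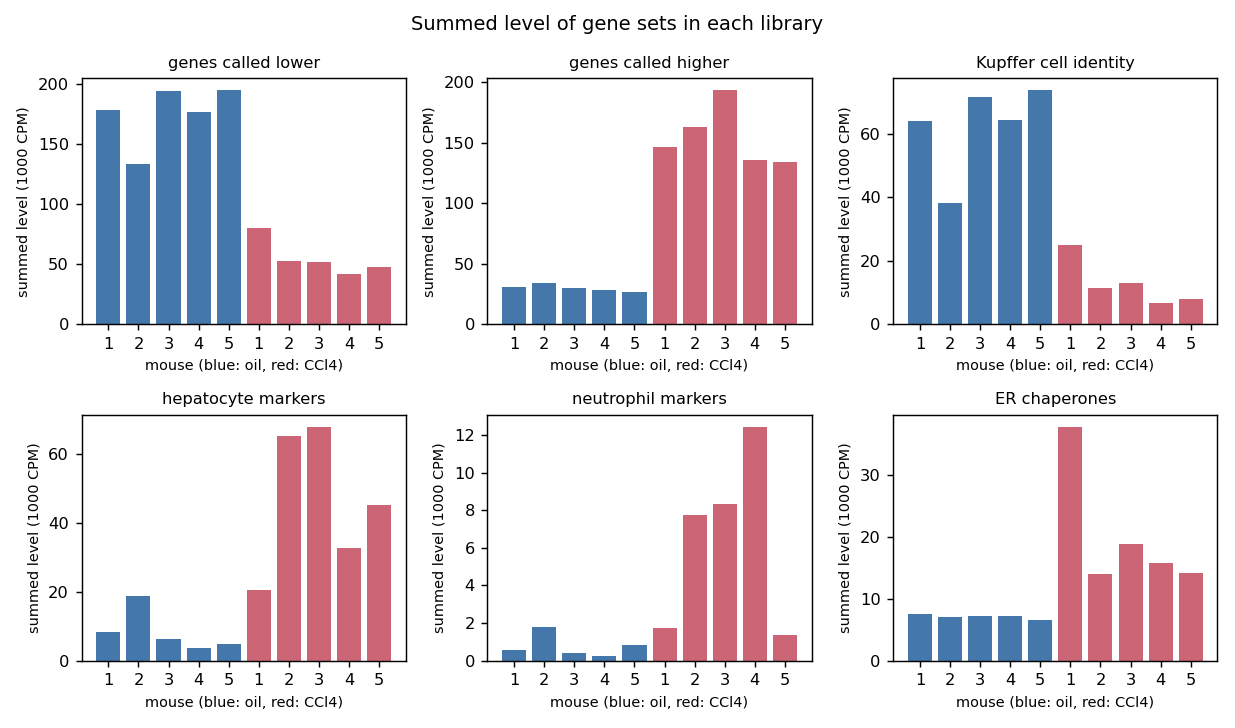
Bars give summed CPM (axis in units of 1000 CPM) for each mouse (oil blue, CCl4 red) from 0; the upper left panels are genes called in this comparison, so their separation is not a test. CCl4 mouse 1 keeps the most Kupffer cell signal of its group (24790 CPM), has the least hepatocyte signal (20500 CPM) and the most endoplasmic reticulum chaperone signal (37790 CPM).

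In a set of stress and nucleolar genes CCl4 mouse 1 was the highest of its group. It stood more than 1.5 times above every other CCl4 mouse in 25 higher genes, against 8, 9, 16 and 60 for mice 2, 3, 4 and 5. This ratio was chosen after the values were seen. The TMM factor of mouse 1, 0.797, was the lowest of the CCl4 libraries (0.868 to 0.970 in the others), which raises its scaled levels against theirs. Ratios just past 1.5, such as 1.55 for Hspa5, depend on that scaling. The 25 genes of mouse 1 held Hspa5, Hsp90b1, Calr, Gadd45a, Ncl, Nop14 and Wdr43 from the stress and nucleolar lists. Others were Abcc2, the bile conjugate pump, at 94.9, 30.1, 82.9, 11.5 and 34.9 CPM in the oil mice and 1492, 179, 324, 167 and 259 CPM in the CCl4 mice, Cald1, the actin-binding caldesmon, at 170.0, 270.4, 203, 204 and 269 CPM in the oil mice and 5808, 933, 1313, 864 and 170.2 CPM in the CCl4 mice, and Rbm28, a nucleolar protein, at 112, 12.5, 78.6, 102 and 75 CPM in the oil mice and 1482, 142, 338, 218 and 269.8 CPM in the CCl4 mice. In these 3 genes mouse 1 was 4.39 to 4.61 times the next CCl4 mouse. The cytoskeletal linker Dst and the Golgi protein Golga4 followed the pattern, at 1946 and 2476 CPM in mouse 1. The call of Cald1 (3.03 (SE 0.67, adjusted p = 0.0161)) was lost without oil mouse 1, 3 or 4, and that of Abcc2 (3.25 (SE 0.75, adjusted p = 0.0144)) without oil mouse 5. The same mouse was lowest of its group for Mt2, S100a6, Il1r2, Mmp8 and Gclc. Its summed ribosome biogenesis level was 15280 CPM, against 5475 to 9994 CPM in the other CCl4 mice, and its acute-phase sum was 17820 CPM, against 17510 to 59430 CPM.

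The index series could be added to the fit because the Trem1-deficient CCl4 mice fall in both series, mice 1 and 2 in that of the oil libraries and mice 3 to 5 in that of the CCl4 libraries. In that fit 37 genes passed, 25 higher and 12 lower. The median standard error grew from 0.655 to 0.978 among higher genes and from 0.41 to 0.724 among lower genes. In some higher genes the fold change shrank while the standard error did not grow. Mup20 went from 9.17 (SE 1.96) to -0.40 (SE 0.97) and Serpina1e from 8.20 (SE 1.57) to 1.54 (SE 1.06). In others, such as S100a6, both grew, from 3.70 (SE 0.42) to 5.19 (SE 0.59). All 188 lower genes kept their sign, and their median log2 fold change was -1.95 beside -1.90. Of the 274 higher genes 262 kept their sign, and their median was 2.09 beside 2.99. Among the 37 were the Kupffer genes Clec4f (-3.36 (SE 0.60)), Vsig4 (-3.05 (SE 0.59)), Cd163 (-4.05 (SE 0.57)), Slc40a1 (-2.73 (SE 0.63)), C1qb and C1qc, and Fcna, Axl, Apoe and Hpgd (-4.06 (SE 0.65)). The gains that passed included S100a6, S100a4, Anxa2, Il1r2 (5.88 (SE 0.79)), Osm, Clec4e, Vcan, Chil3, Adam8, Mmp8, Lcn2, Cd63, Mt2 (4.84 (SE 0.78)) and Gclc (4.92 (SE 1.08)). C1qa (-2.62 (SE 0.76)) and Cd5l (-2.58 (SE 0.60)) kept their size but not their call. The term assumes that the series shifts Trem1-deficient and wild-type mice by the same amount, and it cannot separate index series from sex-linked transcripts, which follow the same division there.

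**Figure D5:**
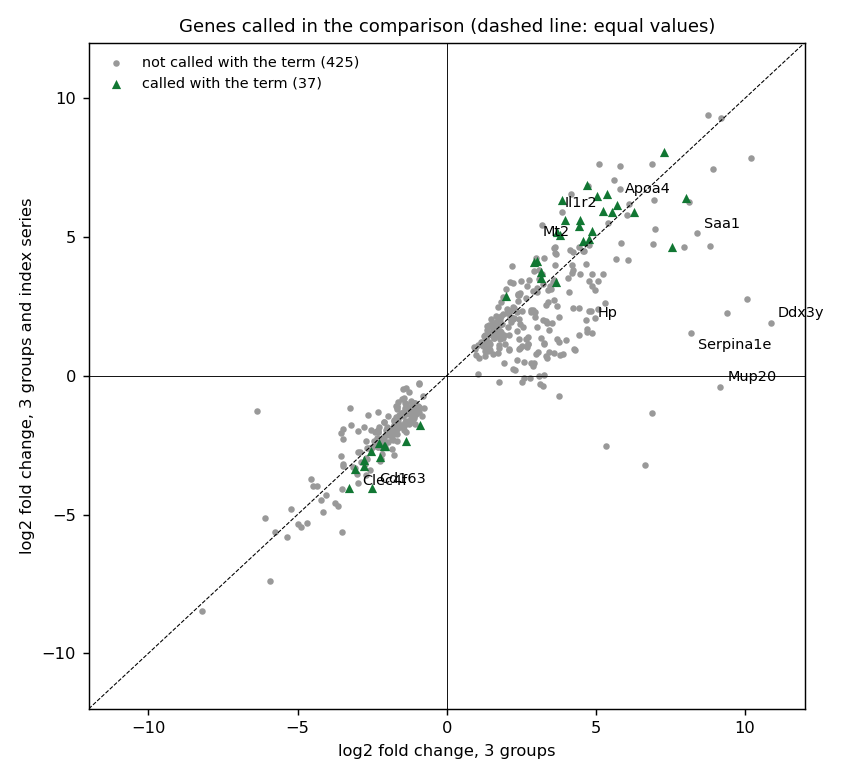
Each point is 1 of the 462 changed genes, with its log2 fold change in the fit of 3 groups on the x axis and in the fit with the index series added on the y axis; the dashed line marks equal values. The lower genes are below 0 in both fits, some of them far from the line, such as Clec4a3 (-1.47 and -0.49) and Cd163 (-2.52 and -4.05); higher genes such as Mup20, Serpina1e and Ddx3y fall far below it, and triangles mark the 37 genes that passed in both fits.

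Calls that did not depend on a single choice can be counted. Of the 462 changed genes, 208 (121 higher and 87 lower) passed in each of 20 other settings, which covered scaling, test, filter, libraries and each mouse left out, and did not include the index-series term.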

How the data were processed

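RNA was measured in 3' tag libraries (Lexogen QuantSeq, per the labels' protocols) of macrophage preparations from 15 mice, of which the 10 wild-type libraries, 5 given oil and 5 given CCl4, were compared. The deposited table holds whole-number read counts by gene, not normalized, with 4 lanes of a mouse in 1 column. The submitters' processing notes name Trimmomatic, STAR 2.5.1a, Partek 6.6 and the build mm10, without their roles. The annotation was, like strand use, not given in the sources used here. Overlapping or antisense genes may therefore share reads. Molecular identifiers are not named either, and limits from 3 counts cover counting error only. The 4 lines that tally unassigned reads were left out; genes took 12.6 to 28.8% of the reads of a library.

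Counts were tested in edgeR 4.0.16 (R 4.3.3) with TMM scaling, filterByExpr by group and the robust quasi-likelihood F-test, in 1 fit of 3 groups with 12 residual degrees of freedom and a Benjamini-Hochberg adjusted p under 0.05. A standard error is the log2 fold change divided by the square root of F. Levels are TMM-scaled CPM. The code was tested on simulated data. Alternatives were RLE scaling, library totals, DESeq2 1.42.0, limma 3.58.1 voom with sample weights, other filters, wild-type libraries only, an index-series term, a replicate block and each mouse left out; leaving out Rn45s, or oil mouse 2 and CCl4 mouse 5 together, was added after seeing the data. The check of pairing gave correlations of -0.02 to 0.02 between same-numbered oil and CCl4 mice, so the numbers do not pair them.

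The 63 gene lists, the members and the tests were chosen with earlier results of these data known. Genes are named by rule: the 15 smallest p values each way at 10 CPM or more, the 12 largest gains and losses in CPM, up to 5 changed and 2 other members of each list, the sex-linked genes, and Trem1, Tyrobp, Clec4f, Adgre1 and Itgam. Genes that complete a count of 5 or fewer, genes high in 1 mouse and genes on no list were named after their values were seen. A few genes that the rule names are not reported here. Promoter windows come from RefSeq (GRCm38.p6); an entry was found for 79.9% of the higher and 79.3% of the lower genes, too few to give a share over the changed genes.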

Additional observations from a re-analysis of the deposited data

Results flagged for a closer look

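A value is listed here when its gap to the nearest other mouse of its group was large against the group's whole range (Dixon's 95% limit, 5 mice). Gap and range were taken on the log2 scale for gene levels (after adding 1 CPM) and for sums. Library measures such as rank correlation were not transformed. Low levels can therefore be listed for small differences in CPM. Of 368 groups of values, 31 (8.42%) were past the limit at their lowest or highest mouse; chance flags about 1 in 20 groups. Of these, 15 were in oil mouse 2, 8 in CCl4 mouse 1 and 4 in CCl4 mouse 5.

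Oil mouse 2 had the lowest median rank correlation with its group, 0.6302, and the lowest sum of the lower genes, 133100 CPM. It was also lowest for Adgre1 (142.7 CPM), Csf1r (1436 CPM), Fcgr4 (190.3 CPM), Fcna (2742 CPM), Folr2 (313 CPM), Gla (5.008 CPM), Nop14 (13.77 CPM), Npm1 (5.008 CPM), Pla2g15 (27.54 CPM), Rbm28 (12.52 CPM) and Xist (90.14 CPM). It was highest for Ccl9 (71.36 CPM) and Hspb1 (5.008 CPM). Its share of counts in Rn45s, ribosomal RNA, was the highest of the oil mice at 18.8%, and its hepatocyte sum was 18630 CPM against 3668 to 8367 CPM in the other 4. Their part in these values was not tested.

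CCl4 mouse 1 was highest for Gadd45a (1717 CPM), Hspa5 (9195 CPM) and Mmp27 (1.33 CPM), and lowest for Mt1 (397.5 CPM), Mt2 (1310 CPM), Serpina1e (857.6 CPM), Sprr1a (5.983 CPM) and Wfdc21 (180.2 CPM). CCl4 mouse 5 had the lowest median rank correlation with its group, 0.561, and the lowest levels of Lcn2 (6.918 CPM), Nr1h3 (6.918 CPM) and Saa2 (8.301 CPM).

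In the remaining oil mice, mouse 1 was highest for Ctsd (2649 CPM), mouse 4 had 0 CPM of Serpina1e, and mouse 5 was highest for Psap (4930 CPM) and lowest for Spic (126.1 CPM).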

How the results depend on the processing

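The number of changed genes, 462, was 1015 with DESeq2, 722 with voom weights, 813 without a filter on low counts and 37 with the index-series term; with 1 mouse left out it was 302 to 759. The number of lower genes, 188, was 314 with library totals, 396 with DESeq2, 291 without a filter, 110 in the wild-type libraries alone, 12 with the index-series term and 291 without oil mouse 2 and CCl4 mouse 5; with 1 mouse left out it was 115 to 423. The number of higher genes, 274, was 619 with DESeq2, 465 with voom weights, 522 without a filter and 25 with the index-series term; with 1 mouse left out it was 180 to 336. The wild-type libraries alone tested 7198 genes and no filter 16587; otherwise the cause was not tested. Of 462 changed genes all kept their sign with RLE scaling, library totals, DESeq2, voom, no filter and the replicate block, and 450 with the index-series term. Mouse numbers do not pair the samples (1 of 5 CCl4 mice correlated best with its own number); the fit with a replicate block gave 365 changed genes.

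Of the 176 genes named here, 123 lost their call with the index-series term and 6 turned sign: Alb to -0.20, Apob to -0.64, C9 to -0.29, Mup20 to -0.40, Nfkbia to -0.58 and Xist to 1.04. Marco turned to -0.131 with library totals, -0.0296 with voom weights and -0.0705 with the replicate block, and with 1 mouse left out it was -0.197 to 0.251 (-0.197 to -0.0818 where the sign turned). Nfkbia was -0.154 with library totals and -0.0381 to 0.0849 (-0.0381 to -0.0176 where the sign turned) with 1 mouse left out. Depth limits low genes: 0 of 254 tested genes under 5 CPM changed.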

Other observations

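Of the 462 changed genes, 152 higher and 116 lower ones were on none of the lists. The lower ones included abundant genes. Aldh2, the mitochondrial aldehyde dehydrogenase, stood at 3584 ± 830.5 CPM in oil mice and 1195 ± 463 CPM in CCl4 mice (SD, n = 5), a log2 fold change of -1.58 (SE 0.26, adjusted p = 2.10e-04) in edgeR's quasi-likelihood test with Benjamini-Hochberg adjustment. Sdc3, a cell-surface proteoglycan, fell from 1582 ± 232 CPM in oil mice to 337 ± 189 CPM in CCl4 mice (-2.23 (SE 0.33, adjusted p = 7.19e-05)), and Aif1 (IBA1), an actin-binding protein of macrophages, from 1943 ± 529.5 CPM in oil mice to 391 ± 337 CPM in CCl4 mice (-2.31 (SE 0.38, adjusted p = 2.49e-04)). St3gal5, which makes the ganglioside GM3, changed by -2.16 (SE 0.35, adjusted p = 1.75e-04), Ly6e by -1.65 (SE 0.27, adjusted p = 1.96e-04), Itm2b by -1.53 (SE 0.25, adjusted p = 2.18e-04), Laptm4a, a lysosomal membrane protein, by -1.27 (SE 0.26, adjusted p = 0.00243) and Rgs2, a brake on G-protein signalling, by -1.36 (SE 0.26, adjusted p = 0.0013). The groups did not overlap in any of these 8 genes.

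Higher genes on none of the lists included products of several cell types. Krt18, a keratin of hepatocytes and other epithelia, stood at 11.8 ± 10.6 CPM in oil mice and 615 ± 426 CPM in CCl4 mice (5.69 (SE 0.81, adjusted p = 2.23e-04)), and Igfbp1, a stress-induced binding protein for insulin-like growth factors secreted by hepatocytes, at 21 ± 17.1 CPM in oil mice and 694 ± 428 CPM in CCl4 mice (5.07 (SE 0.89, adjusted p = 0.00304)). Hdc, which makes histamine, rose from 44.8 ± 28.7 CPM in oil mice to 621 ± 391 CPM in CCl4 mice (3.79 (SE 0.63, adjusted p = 7.01e-04)). Cd93, a receptor of myeloid and endothelial cells, rose by 3.17 (SE 0.50, adjusted p = 1.35e-04), the nuclear lamin Lmnb1 by 3.17 (SE 0.50, adjusted p = 1.35e-04), Wfdc21 by 3.50 (SE 0.48, adjusted p = 2.77e-05) and Lrrfip2 by 2.83 (SE 0.43, adjusted p = 8.56e-05). Sprr1a, a cornified-envelope protein, was at 0.940, 0, 1.43, 0 and 0 CPM in the oil mice and 5.98, 108, 149, 320.5 and 201 CPM in the CCl4 mice, a log2 fold change of 8.13 (SE 1.19, adjusted p = 6.03e-05). Every CCl4 mouse was above every oil mouse for these 8 genes. Their cell of origin was not tested.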
